A study of Homo sapiens with 4 samples.

Results

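The 8q24 window examined here is chr8:126200000-129300000 (build hg19), which holds TRIB1 at 126.44 to 126.45 Mb, MYC at 128.75 Mb and, between them, a stretch poor in protein-coding genes that is known for inherited prostate cancer risk. Its members are the FOXA2 peaks whose summit lies in the window. The window was chosen by the position of called peaks, with the strong site at TRIB1 already known, so the number and strength of its peaks are given as a description. It held 57 of the 14846 peaks called in PC3 cells given GSK2879552 and 75 of the 21308 peaks called in PC3 cells given vehicle. Joined across both lists these made 81 sites, of which 51 were called in both, 6 in GSK2879552 alone and 24 in vehicle alone.

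FOXA2 is a forkhead transcription factor that can bind its sites in compact chromatin. It marks endodermal and neuroendocrine tissues, and in prostate cancer it is associated with androgen-independent disease. PC3 is an androgen-independent human prostate cancer line from a bone metastasis. GSK2879552 inhibits LSD1 (KDM1A), a demethylase that removes methyl groups from histones and other proteins. Peak lists hold no expression values, so neither the identity of the cells nor the activity of the genes could be checked.

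The data were chromatin immunoprecipitation sequencing (ChIP-seq) of FOXA2 in PC3 cells that received 50 µM GSK2879552 for 4 hours and in vehicle-treated PC3 cells. The labels give RPMI-1640 with 5% CSS as the medium during treatment. Each group had 2 sequencing lanes, called technical replicates, and both lanes were covered by 1 peak list. No spread between cultures can be had from 1 list per group, and the groups were compared without a test. Each difference below is one between these 2 libraries, and the 95% intervals cover counting error only. The unit throughout is the number of sequenced fragments covering a peak's summit, recovered from the fold enrichment and p-value that the authors deposited. It ranged from 7 to 332 over the whole GSK2879552 list and from 7 to 347 over the vehicle list. Read density was 6.44 and 6.17 reads per kb in GSK2879552 and vehicle, on the assumption that peaks were called without a control library.

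The 22 genes listed for the window, in the order of the RefSeq annotation, begin with NSMCE2, a SUMO ligase that acts in DNA repair, and TRIB1, a pseudokinase that brings substrates such as the transcription factor C/EBPα to the COP1 ubiquitin ligase. LINC00861 and LRATD2 (FAM84B) follow. Then come 8 long non-coding RNAs, among them the prostate cancer-associated PCAT1 and PRNCR1 and the colon cancer-associated CCAT1 and CCAT2, and POU5F1B, a retrogene copy of the pluripotency factor POU5F1. CASC11, MYC and PVT1 follow, and the order closes with 5 microRNA genes and, among them, the long non-coding RNA LINC02912 (TMEM75). MYC encodes a growth-promoting transcription factor, and PVT1 is a long non-coding RNA often gained together with it. The annotation used for this order is of another build (GRCh38), so peaks were placed against TRIB1 and MYC alone, at the rounded hg19 positions above, and no peak was assigned to an exon, intron or promoter.

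**Figure D1:**
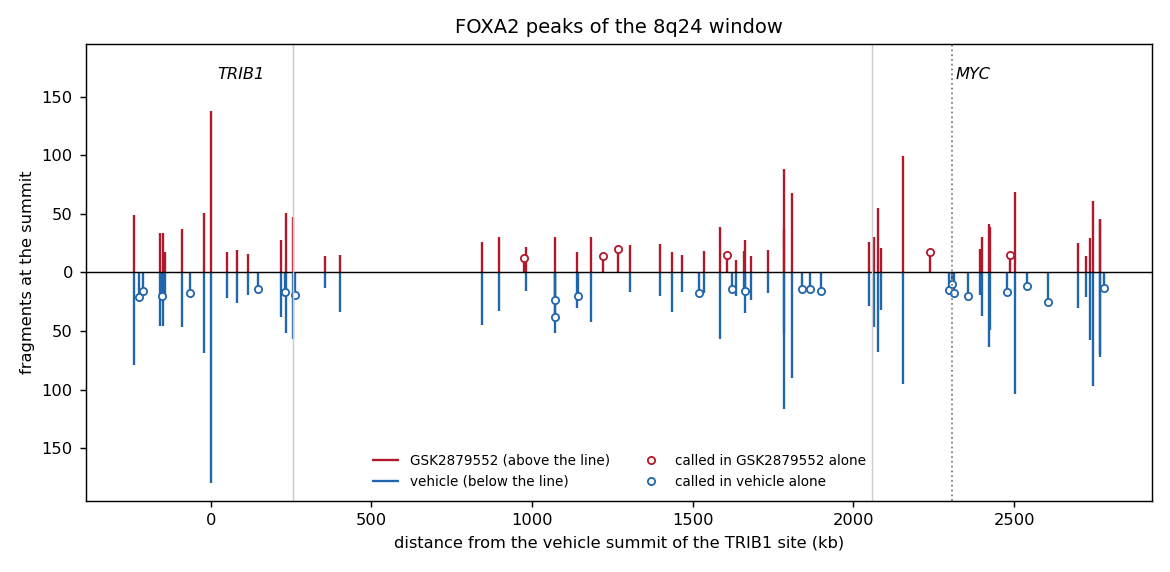
Fragments at the summit of each FOXA2 peak (vertical axis) against the distance in kb from the vehicle summit of the TRIB1 site (horizontal axis), with GSK2879552 above the line and vehicle below it. Open circles mark peaks called in 1 list alone, grey lines bound the desert, and the dotted line is the position of MYC. The TRIB1 site, with 138 fragments in GSK2879552 and 180 in vehicle, is the tallest of the window in both lists, and every peak within 50 kb of MYC is called in vehicle alone.

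The strongest site of the window lay in the 10 kb interval that holds TRIB1. At chr8:126442324-126442655 in the GSK2879552 list 138 fragments covered the summit, and at chr8:126442300-126442669 in the vehicle list 180 did. Summit fragment ratios were divided by 1.002, the lowest local background in GSK2879552 over that in vehicle. The ratio of reads per kb was 1.044 and was not used for them. So scaled, the ratio of GSK2879552 to vehicle at this site was 0.765 (0.608 to 0.960). The interval lies below 1 but takes in 0.798, the median ratio over all 13197 pairs of the series. The summits were 7 bp apart. By the deposited −log10 p the peak ranked 9th in the GSK2879552 list and 4th in the vehicle list, and by fold enrichment 5th (fold 20.4) and 2nd (fold 24.4). It kept first place in the window in both lists. It alone held 7.32% of all summit fragments of the window in GSK2879552 and 6.37% in vehicle. These shares are of called peaks only, 57 in GSK2879552 and 75 in vehicle. A site without a call adds nothing to its list's sum, so the shares cannot be compared between the lists.

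Both other sites within 50 kb of the TRIB1 interval were called in both lists too. The site at chr8:126422855-126423187 in vehicle, 17.0 kb before the interval, had 51 fragments in GSK2879552 and 69 in vehicle, a ratio of 0.738 (0.503 to 1.07). The site at chr8:126494484-126494713 in vehicle, 44.6 kb beyond it, had 17 and 22, a ratio of 0.771 (0.384 to 1.52). Neither differed beyond counting error, and the interval around the weaker one is wide. Over the whole TRIB1 side (the first 0.5 Mb of the window), 13 peaks were called in GSK2879552 and 19 in vehicle. All 13 GSK2879552 peaks paired with a vehicle peak, where 89.2% of all GSK2879552 peaks overlapped one. All 13 pairs had fewer fragments in GSK2879552, as did 78.1% of all pairs of the series. In the 3.1 Mb before the window, a stretch as long as the whole window, 28 of 28 GSK2879552 peaks overlapped a vehicle peak. There, 24 of 28 pairs had fewer fragments in GSK2879552. The log2 ratios of the 13 TRIB1-side pairs were close together, with a median of -0.39 (interquartile range -0.44 to -0.28). The farthest from 0 was the first site of the window, at chr8:126204015-126204417 in vehicle, with 49 fragments in GSK2879552 and 79 in vehicle. The nearest to 0 was at chr8:126676693-126677023 in vehicle, with 51 and 52. The 6 TRIB1-side sites called in vehicle alone had 14 to 21 fragments.

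No GSK2879552 peak was called within 50 kb of MYC, where vehicle had 4 peaks. The vehicle peaks were weak. At chr8:128747981-128748174, 1.98 kb from the 128.75 Mb position, 10 fragments covered the vehicle summit, the fewest of any vehicle peak in the window. At chr8:128754761-128754950, 4.82 kb away, 18 did. The peak at chr8:128739617-128739791, 10.3 kb away, had 15 fragments, and that at chr8:128799492-128799764, 49.6 kb away, had 20. These 4 ranked between 12043rd and 21277th of the 21308 vehicle peaks. Vehicle peaks of like strength were often not called in GSK2879552 elsewhere. With all vehicle peaks ranked by −log10 p and cut into 10 equal bins, the 4 fell in bins 1, 3, 4 and 5, where a GSK2879552 peak overlapped 19.7%, 34.5%, 45.3% and 54.0% of those outside the window. A site without a call has no fragment number in the list, so how far below the vehicle number GSK2879552 lay at MYC is not known.

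The GSK2879552 summits that flank MYC were 155.8 kb apart. The lower one, at chr8:128681110-128681277 with 17 fragments, was called in GSK2879552 alone and lay 68.8 kb from MYC. The upper one was part of a site with 20 fragments in GSK2879552 and 19 in vehicle, at chr8:128836813-128837020 in vehicle and 86.9 kb from MYC. The nearest site before MYC that was called in both lists stood 151.5 kb away, at chr8:128598350-128598697 in vehicle. It had 99 fragments in GSK2879552 and 95 in vehicle, a ratio of 1.04 (0.777 to 1.39). It ranked 27th in the GSK2879552 list and 105th in the vehicle list, and within the window it took rank 2 in GSK2879552 and rank 5 in vehicle. Of the 10 strongest vehicle sites of the window the other 9 had fewer fragments in GSK2879552, which a choice by vehicle strength favours. The interval of the ratio at chr8:128598350-128598697 takes in equal numbers and the median ratio of all pairs of the series, 0.798. On the log2 scale it ran from -0.36 to 0.48. Its lower end lay just above -0.38, the median of the 1472 series pairs with 50 or more vehicle fragments. Whether the ratio differs from these medians or from the 0.765 at TRIB1 was not tested.

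The remaining strong sites of the MYC and PVT1 side (the last 0.8 Mb) had fewer fragments in GSK2879552. The site at chr8:128943892-128944245 in vehicle had 69 fragments in GSK2879552 and 104 in vehicle, a ratio of 0.662 (0.481 to 0.906). At chr8:129189039-129189455 in vehicle the numbers were 61 and 97, a ratio of 0.628 (0.448 to 0.873). At chr8:129179651-129179955 in vehicle, 9.50 kb before it, they were 29 and 58, a ratio of 0.499 (0.308 to 0.792). A pair of neighbours followed, 0.648 kb from each other. The first, at chr8:129209226-129209521 in vehicle, had 46 and 72 fragments and the second, at chr8:129209852-129210193, had 45 and 70. At chr8:128864249-128864577 in vehicle they were 41 and 64. The intervals of these 6 ratios all lay below 1. All but that at chr8:129179651-129179955 took in the median ratio of all pairs, 0.798. The 1472 pairs of the series with 50 or more vehicle fragments, as these 6 sites had, gave a median log2 ratio of -0.38. On the log2 scale all 6 intervals took in this value, that of chr8:129179651-129179955 running from -1.70 to -0.34. The site at chr8:128519633-128520015 in vehicle was closer to even, with 55 fragments in GSK2879552 and 68 in vehicle and a ratio of 0.807 (0.555 to 1.17). Over this side, 17 peaks were called in GSK2879552 and 23 in vehicle, and 15 sites were pairs. Of these pairs 13 (86.7%) had fewer fragments in GSK2879552, where 78.1% of all pairs of the series did. Their median log2 ratio was -0.59 (interquartile range -0.65 to -0.31), against -0.32 over the series. They were also stronger, with a median of 58 vehicle fragments against 24 over all pairs of the series.

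The desert between both genes (1.8 Mb) held 27 GSK2879552 and 33 vehicle peaks, spread thinly at 15 and 18.3 peaks per Mb in GSK2879552 and vehicle, against 26 and 38 on the TRIB1 side and 21.3 and 28.8 on the MYC and PVT1 side. Its strongest pair of sites stood 522.4 and 499.5 kb before MYC. At chr8:128227451-128227874 in vehicle the numbers were 88 fragments in GSK2879552 and 117 in vehicle, a ratio of 0.751 (0.563 to 0.998). A weaker neighbour 2.12 kb before it, at chr8:128225370-128225693, had 37 and 52. The other strong site, at chr8:128250317-128250796, had 68 fragments in GSK2879552 and 90 in vehicle, a ratio of 0.754 (0.542 to 1.04). The ratios of both strong sites were nearly equal, and of these intervals the first alone lay below 1, while both took in 0.798.

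Ratios in the desert lay on both sides of 1, as they did over the whole series. Of all 23 desert pairs, the strong ones included, 16 (69.6%) had fewer fragments in GSK2879552, 2 had equal numbers and 5 had more. Of the 13197 pairs of the series 10303 (78.1%) had fewer, 747 had equal numbers and 2147 had more. The interquartile range of the desert log2 ratios, -0.79 to 0.00, was wider than on either side. Desert pairs were also weaker, with a median of 30 vehicle fragments against 46 on the TRIB1 side and 58 on the MYC and PVT1 side. The part of strength in this spread was not tested. The lowest ratio of the whole window was at chr8:126845374-126845619 in vehicle, with 15 fragments in GSK2879552 and 34 in vehicle, a log2 ratio of -1.18 and a ratio of 0.440 (0.223 to 0.830). It was followed by chr8:127877405-127877704 in vehicle with 17 and 34. The highest was at chr8:127424254-127424462 in vehicle, with 22 fragments in GSK2879552 and 16 in vehicle, a log2 ratio of 0.46 and a ratio of 1.37 (0.688 to 2.80). The next highest, at chr8:127748612-127748875, had 23 and 17. The higher numbers in GSK2879552 were all within counting error of equal numbers. The desert also held the longest stretch without a peak, 441.0 kb in both lists, between the lowest-ratio site and chr8:127286339-127286637, which had 26 fragments in GSK2879552 and 45 in vehicle.

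**Figure D2:**
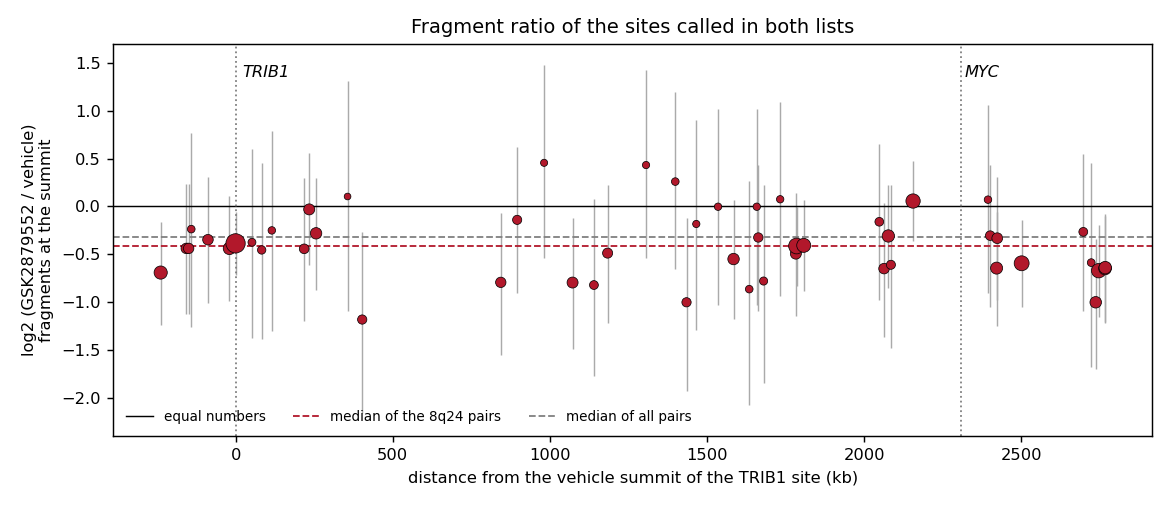
Log2 ratio of summit fragments, GSK2879552 over vehicle (vertical axis), against the distance in kb from the TRIB1 site (horizontal axis). Shown are the 51 sites called in both lists, with the ratio scaled by the background floors, a factor of 1.002. Point area grows with the vehicle fragments, bars are exact 95% counting intervals, and dashed lines are the medians of the 8q24 pairs (-0.41) and of all pairs (-0.32). The TRIB1 site, the largest point, lies at -0.39, and the site 151.5 kb before MYC at 0.06.

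Calls in both lists were as frequent as in the whole series, within counting error. The number of peaks in GSK2879552 was 0.760 times that in vehicle (0.529 to 1.09), against 0.697 over the whole series and 0.719 (0.660 to 0.783) on the rest of chromosome 8. Of the 57 GSK2879552 peaks 51 (89.5%, 78.5 to 96.0) overlapped a vehicle peak, where 89.2% of all GSK2879552 peaks did. In vehicle 51 of 75 peaks (68.0%, 56.2 to 78.3) were matched by an overlapping peak of the other list, where 62.0% of all its peaks were. The mix of strong and weak vehicle peaks in the window, combined with the shares seen in the same strength bins outside it, gave 67.5%. The window's share was within counting error of both values. All 19 vehicle peaks of the strongest bin and all 10 of the next were called in GSK2879552, where 100% and 98.4% of the vehicle peaks outside the window in these bins were.

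At the 51 pairs the median was 29 fragments in GSK2879552 and 38 in vehicle, and the summed fragments were 1791 and 2395. After scaling, the log2 ratios had a median of -0.41 (interquartile range -0.64 to -0.21), against -0.32 (-0.57 to -0.08) over the 13197 pairs of the series. The pairs of the series were weaker, with a median of 24 vehicle fragments. At 50 or more vehicle fragments, the median log2 ratio was -0.52 over 18 pairs of the window and -0.38 over 1472 pairs of the series. Fewer fragments in GSK2879552 were found at 42 pairs (82.4%), equal numbers at 2 and more at 7, where 78.1% of all pairs had fewer. The number was at least 1.5-fold lower at 17 pairs (33.3%), where 24.8% of all pairs were, and at least 1.5-fold higher at none of the 51. The 17 comprised 9 of 15 pairs on the MYC and PVT1 side, 7 of 23 in the desert and 1 of 13 on the TRIB1 side. These shares were not matched for vehicle strength. Whether the window or its sides differ from the series was not tested.

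**Figure D3:**
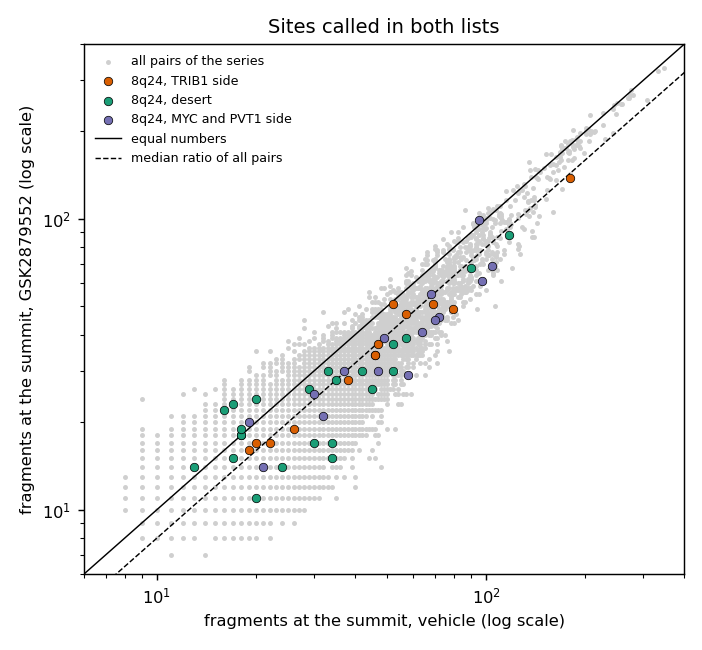
Fragments at the summit in GSK2879552 (vertical axis, log scale) against vehicle (horizontal axis, log scale) for sites called in both lists. Grey points are all 13197 pairs, coloured points the 51 pairs of the 8q24 window by side, the solid line equal numbers and the dashed line the median ratio of all pairs (0.798). The 8q24 points lie within the cloud of all pairs, and 42 of them fall below the solid line.

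The order of the sites by strength was similar in both lists. Across the 51 pairs, Pearson's r of log2 fragments was 0.917 and Spearman's rho 0.896, a description over sites that share 2 libraries. Of the 10 strongest vehicle sites of the window, 8 were also among the 10 strongest of GSK2879552. Paired summits lay a median of 21 bp apart (interquartile range 9.5 to 31.5) and at most 115 bp. The GSK2879552 interval was the narrower one at 37 pairs and the wider one at 14, with median widths of 285 bp in GSK2879552 and 300 bp in vehicle.

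Most sites called in 1 list alone had fewer fragments than the median site called in both. The 6 sites of GSK2879552 alone had 12 to 20 fragments, with a median of 15. The strongest of them was at chr8:127711239-127711468, with 20 fragments and no vehicle summit within 37.4 kb. It was followed by chr8:128681110-128681277, already described, and then by chr8:128047895-128048063 and chr8:128931547-128931717 with 15 each. The 24 sites of vehicle alone had 10 to 38 fragments, with a median of 17, against a median of 38 for the vehicle peaks also called in GSK2879552. Over the whole series the median was 14 for vehicle peaks called in vehicle alone and 24 for those also called in GSK2879552. It was 18 for all vehicle peaks. The strongest vehicle-only site of the window, at chr8:127515270-127515534, had 38 fragments, as many as the window's median for peaks also called in GSK2879552. It lay 454 bp from a GSK2879552 summit that paired with its neighbour. That neighbour, at chr8:127514810-127515115 in vehicle, had 30 fragments in GSK2879552 and 52 in vehicle. The second, at chr8:129047400-129047647 with 25 fragments, had no GSK2879552 summit within 92.7 kb. The third, at chr8:127513312-127513490 with 24 fragments, belonged to the same group as the first. Within 5 kb of a GSK2879552 summit lay 6 of the 24.

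The window's peaks sat on a high local background, which is the number of fragments per position that the peak caller took as the level around the summit. Its median was 2.86 fragments in GSK2879552 and 2.92 in vehicle, against 1.66 and 1.63 on other chromosomes. The rest of chromosome 8 was nearly as high, with 2.76 in GSK2879552 and 2.64 in vehicle. Among weak peaks, with 20 fragments or fewer and so little of their own signal in the background, the medians were 2.47 (22 GSK2879552 peaks) and 2.40 (32 vehicle peaks) in the window, against 1.43 and 1.37 on other chromosomes. On the rest of chromosome 8 they were 2.3 and 2.2. In the equally long stretches before and after the window they were 2.7 and 2.4 in GSK2879552, and 2.3 and 2.5 in vehicle. Whether the level of reads moves with the fragment numbers of the window, and its part in the strength of these sites, was not tested. The TRIB1 site was strong on both scales. The site at chr8:128227451-128227874 in vehicle, where the background was 5.86 fragments in GSK2879552 and 7.44 in vehicle, ranked 91st in GSK2879552 and 87th in vehicle by −log10 p, but 566th and 1125th by fold.

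**Figure D4:**
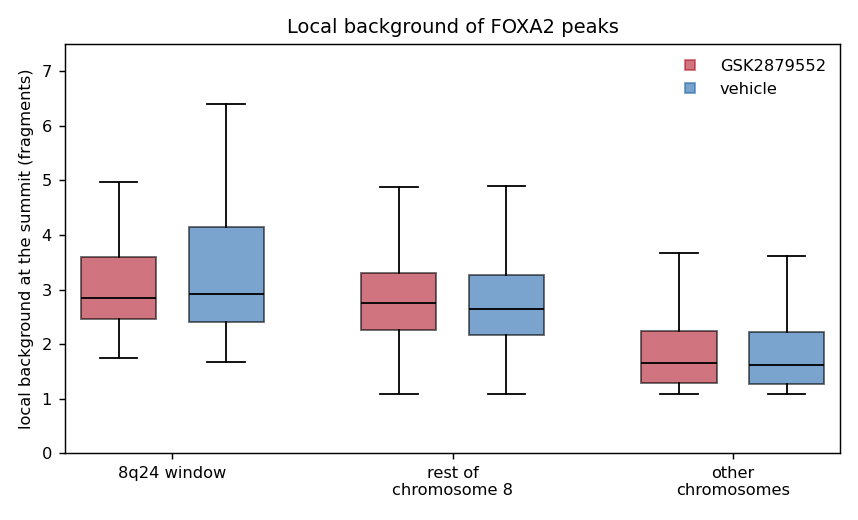
Local background at the summit, in fragments (vertical axis), for peaks of the 8q24 window, of the rest of chromosome 8 and of other chromosomes. Each pair of boxes shows GSK2879552 left of vehicle, with the median, the quartiles and whiskers to the last value within 1.5 interquartile ranges. The window's medians, 2.86 and 2.92, lie above those of other chromosomes, 1.66 and 1.63.

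Every background of a pair in the window was a whole number of reads in 10 kb to within 0.001, so the reads around each summit could be set beside those on it, again if no control library was used. At the TRIB1 site 347 reads lay in the 10 kb in GSK2879552 and 366 in vehicle, and the summit fragments amounted to 39.8% and 49.2% of them. At the site 151.5 kb before MYC there were 251 and 245 reads, with 39.4% and 38.8% at the summit. Over the 51 pairs the share at the summit had a median of 15.4% in GSK2879552 and 20% in vehicle, and it was lower in GSK2879552 at 45 pairs (88.2%), where 83.1% of all pairs above the background's floor were. Reads in the 10 kb that did not cover the summit had a median log2 ratio of -0.03 at the window's pairs. For the fragments on the summit it was -0.41. The ratio around the summit was divided by 1.044, the ratio of reads per kb, and that on the summit by 1.002, as above. On these unlike scales the fragments on the summit were fewer in GSK2879552 while the reads around them were close to equal. This was not particular to the window. The medians were 0.01 around the summit and -0.32 on it over the whole series, and 0.01 and -0.34 on the rest of chromosome 8. The fragment length also differed, with 168 bp in GSK2879552 and 175 bp in vehicle as the shortest peak, and its part was not tested.

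The window, itself chosen by where peaks were called, held more peaks than the stretches beside it. GSK2879552 had 18.4 peaks per Mb in the window, 9.03 in the equally long stretch before it and 10.3 in the one after it. Vehicle had 24.2, 13.5 and 17.7 peaks per Mb. At the lower edge, the site just outside, at chr8:126186449-126186843 in vehicle, had 24 fragments in GSK2879552 and 25 in vehicle, and the site just inside was the first described above, with 49 and 79. At the upper edge the last peaks inside, at chr8:129209902-129210147 in GSK2879552 and chr8:129222294-129222469 in vehicle, had 45 and 13 fragments, and the site just outside, at chr8:129326704-129327045 in vehicle, had 56 in GSK2879552 and 75 in vehicle.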

How the data were processed

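The submitters' processing notes name the aligner BWA 0.7.2, the peak caller MACS2 2.1.2, SAMtools 0.1.18 and build hg19. Options, threshold, duplicate handling and use of a control were not given in the sources used here. Sample descriptions name ATAC-seq; titles and series name FOXA2 ChIP-seq, which was followed. The authors' deposited lists give per peak a fold (ratio of summit to local background, 1 added to both), a −log10 p and −log10 q from the peak caller, and a summit offset. From fold and p, the whole number of fragments and the background were solved under MACS2's Poisson definition; 100% of peaks matched within 0.001, and the recovery was checked on simulated data. Background floors of 1.0816 (GSK2879552) and 1.0794 (vehicle) fragments scaled ratios; the shortest interval was taken as fragment length. Overlap meant 1 bp or more, counted with Python 3.11.15 and checked with bedtools 2.31.1; pairs are mutual partners of highest −log10 p. Intervals are exact binomial (95%, SciPy 1.17.1).

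Members, lists and comparisons were chosen with earlier results of these data known. Sites given in full are the 10 strongest vehicle sites, those within 50 kb of TRIB1 or MYC, the 3 strongest of each list alone, the extreme ratios and the edges; other named sites, the limit of 20 fragments for weak peaks, and the comparison of reads in 10 kb, were chosen after values were seen. No sequence of the region is printed. Alternatives were stricter thresholds, other overlap rules, other edges, joined summits, no scaling, and removal of the strongest site.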

Additional observations from a re-analysis of the deposited data

How the results depend on the processing

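Of 41 values recomputed under 11 alternative settings, 39 stayed within the interval of the reported value (for density, within 1.5 times). With both lists held to a −log10 q of at least 10, vehicle density fell to 13.5 peaks per Mb, since fewer peaks are left by construction. With a fold of at least 5 in both lists, the share of GSK2879552 peaks overlapping a vehicle peak was 97.7%, above its interval. That cut left 44 GSK2879552 peaks and 43 pairs. It removed every peak called in GSK2879552 alone except chr8:127711239-127711468, which had a fold of 6.05. The ratio of peak numbers ran from 0.733 to 0.810, the median log2 ratio of pairs from -0.44 to -0.38 and that of the TRIB1 site from -0.40 to -0.38. Without the TRIB1 site the median was -0.43. Lanes could not be left out singly, as 1 list stands for both. No paired analysis was possible because there is a single list for GSK2879552 and a single one for vehicle. Weak sites rest on few fragments, the smallest number called in the window being 11 in GSK2879552 and 10 in vehicle, so a site in 1 list alone is one without a call in the other, not one shown to be unbound. Depth was 6.44 and 6.17 reads per kb in GSK2879552 and vehicle.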
